A study of Mus musculus with 2 samples.

Results

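The genes described are the replication-dependent histone genes of the mouse. They were taken as the genes whose symbol names a member of the H1f1 to H1f5, H2ac, H2bc, H3c or H4c sets, which gave 66 members of 33696 genes in the count tables. The members comprise 5 linker histone H1 genes, 18 H2A, 18 H2B, 12 H3 and 13 H4 genes. Of these, 64 had at least 1 unique molecular identifier (UMI, a tag that marks 1 captured RNA molecule) in each library. The other 2, H2ac1 and H2bc1, known as forms made in the testis, had none in either library.

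Immune cells were profiled from mice given 3 weekly intraperitoneal injections of 2.5 mg S-100, a liver extract in adjuvant used to model chronic autoimmune hepatitis (AIH). The KO library came from Alb-Cre Bicd2 fl/fl mice, in which the albumin promoter drives Cre recombinase in hepatocytes. The WT library came from Bicd2 fl/fl mice without Cre that received the same injections. Bicd2 encodes an adaptor of the dynein motor. Both libraries were made with a droplet 3′ RNA kit, and each genotype had 1 library, with the number of pooled animals not given in the sources used here. No test between genotypes was therefore possible, and intervals given below cover the counting error of UMIs only, not the spread between cells or animals. The sample labels name peritoneal immune cells and a treatment of HFD, whereas the series text names hepatic immune cells and S-100. Bicd2 itself had 625 UMIs in KO, or 13.1 CPM (UMIs of a gene scaled to the usual common total of UMIs), and 1501 in WT, or 19.6 CPM, which checks nothing about the deletion, since hepatocytes carry it and not immune cells.

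Replication-dependent histones package newly made DNA. H2A, H2B, H3 and H4 form the nucleosome core, H1 binds the linker DNA between cores, and their mRNAs accumulate in S phase and are degraded when replication ends. Most of these mRNAs end in a conserved stem-loop, bound by SLBP, in place of a poly(A) tail, so that capture with oligo(dT) favours forms that do carry a tail. UMIs here are not divided by length, so a level is a captured level and its size is compared only for the same gene between groups of barcodes.

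The stem-loop and the bases around it are shown for 8 members on which the results below turn, since the distance from this site to the annotated 3′ end differs among them. The motif, searched on the sense strand and printed in capitals, was GGNN joined directly by CTTNTN and then by AGNNCC (N, any base), in the longest GENCODE M21 protein-coding transcript of each gene.
H3c3: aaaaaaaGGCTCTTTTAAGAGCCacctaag
H2ac24: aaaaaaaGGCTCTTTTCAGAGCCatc
H2ac8: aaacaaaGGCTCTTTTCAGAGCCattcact
H4c4: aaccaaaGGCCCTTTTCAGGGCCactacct
H1f2: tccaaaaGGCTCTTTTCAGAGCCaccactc
H2bc6: aaccaaaGGCTCTTTTCAGAGCCacccaac
H2ac25: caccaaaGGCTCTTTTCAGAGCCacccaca
H4c16: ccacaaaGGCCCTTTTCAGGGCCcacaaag
It was found in 44 of 66 members (66.7%) and in 136 of 21901 genes (0.621%). The annotated transcript of 22 members ended under 100 bases after it, that of 22 ran on for at least 100 bases, and 22 had no such site in the annotated transcript, among them H1f5, H1f1, H2bc4 and H2bc21. H3c3 ended 74 bases after the motif and H2ac24 3 bases after it. H2ac25, on chromosome 11, and H4c16, on chromosome 6, ran on for 1643 and 2445 bases, H2bc6 for 1861 and H1f2 for 840.

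A poly(A) signal, AATAAA, lay in the last 50 bases of the annotated transcript in 13 of 66 members. It is shown in capitals for 4 of them: H2ac25, H4c16 and H2bc21, for which the counting interval between dividing and other barcodes held 1 in KO below, and H1f2, which differs between genotypes in neutrophil-like barcodes.
H2ac25: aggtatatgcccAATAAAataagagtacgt
H4c16: agaagatgctagaggagatgaAATAAAtac
H2bc21: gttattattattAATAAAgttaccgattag
H1f2: gtgtatgcttctAATAAAaagcgtttagtt
The members resemble each other closely. In 32 of 66, over 50% of the 60-base words in the last 400 bases of the transcript also occurred in another member, and 22 shared none. Counts of single members in the first set, which includes H2ac24 with 100% of its words shared, may be split between copies by the authors' counting and are uncertain. H1f5, H1f2, H2bc6, H2bc4, H2ac25, H4c16 and H4c4 shared none.

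Promoters of 57 members were found in the RefSeq table, which is on GRCm38.p6 and was used for sequence only. The windows of H1f5, chr13:21780576-21780875 on the minus strand, and of H2ac4, chr13:23750838-23751137 on the plus strand, are shown because H1f5 and H2ac4 lie on opposite sides of WT below. Each runs from 250 bases before to 50 bases after the annotated start, with capitals marking TATAAA (the TATA box), CCAAT (a box bound by NF-Y), ATTTGCAT (the octamer) and AAACACA on either strand.
H1f5: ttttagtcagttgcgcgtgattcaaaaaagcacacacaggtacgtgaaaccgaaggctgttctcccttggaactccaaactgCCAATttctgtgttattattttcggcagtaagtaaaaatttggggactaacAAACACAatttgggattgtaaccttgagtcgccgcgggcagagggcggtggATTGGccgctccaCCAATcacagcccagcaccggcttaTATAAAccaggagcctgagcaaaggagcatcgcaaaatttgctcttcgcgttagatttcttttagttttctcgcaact
H2ac4: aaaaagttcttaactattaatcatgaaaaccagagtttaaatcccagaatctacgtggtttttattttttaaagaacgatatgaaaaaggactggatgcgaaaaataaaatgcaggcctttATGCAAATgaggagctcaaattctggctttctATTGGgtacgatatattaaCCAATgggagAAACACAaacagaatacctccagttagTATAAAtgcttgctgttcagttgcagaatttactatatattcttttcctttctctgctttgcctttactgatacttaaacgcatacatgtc
TATAAA was in 58.6% of the 58 windows of members and 13.6% of all 32851 promoters, and CCAAT in 86.2% and 37.4%. The octamer ATTTGCAT was in 22.4% of member promoters, in 6 of the H2A and 7 of the H2B windows and in none of H1, H3 or H4, against 1.74% of all promoters. AAACACA, described as an H1 promoter element, was in 4 of 5 H1 windows, in 13.8% of member promoters and in 7.18% of all promoters.

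After barcodes with under 200 genes or over 20% mitochondrial UMIs were left out, 17675 KO and 20167 WT barcodes remained, with medians of 2001 and 2719 UMIs. Haemoglobin genes held 22.8% of KO and 11.0% of WT UMIs, and 38.8% of KO and 17.4% of WT barcodes had over 10% haemoglobin. The libraries shared 107 of these barcodes. Clusters, formed without the histone and cell cycle genes, were named from fixed markers, all of which were detected in their own class in both libraries. Most T-like barcodes were in cluster 0 in KO (3347 of 5464) and in cluster 2 in WT (3494 of 5761), so that the class does not have the same makeup in both. A cluster mostly of 1 library may be that library rather than a type. Barcodes with at least 2 UMIs of Mki67 and Top2a, genes of proliferating cells, are called dividing. As background, 8.80% of KO and 11.6% of WT erythroid-like barcodes outside the dividing set had a histone UMI, at median depths of 3014.5 and 3454 UMIs. Over T-like barcodes outside that set the shares were 25.5% and 33.1%, at 1852 and 2421 UMIs.

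Over all kept barcodes the 66 members together had 15819 UMIs in KO and 72865 in WT, that is 331 CPM in KO (95% Poisson interval 325 to 336) and 954 CPM in WT (947 to 961). KO was 0.347 times WT (0.341 to 0.353). Of 62 members with at least 20 UMIs over both libraries, 30 were at least 2-fold lower in KO, against 5.17% of all genes, and 0 were at least 2-fold higher, against 1.89%. The median log2 difference, with 1 CPM added, was -0.92 over members and -0.05 over all genes. In bulk sums of this kind fewer cells of a type and less RNA per cell cannot be told apart.

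The dividing set was smaller in KO, and within it the summed level differed little. It held 1.91% of KO barcodes (95% Clopper-Pearson interval 1.72 to 2.12%) and 12.6% of WT barcodes. It supplied 46.6% of all histone UMIs in KO and 84.5% in WT. Dividing barcodes had 3181 CPM in KO and 3223 CPM in WT, a ratio of 0.987 (0.963 to 1.011). The other barcodes had 186 and 197 CPM, a ratio of 0.943 (0.917 to 0.970). In T-like barcodes the dividing share was 2.71% in KO (148 of 5464) and 15.3% in WT (884 of 5761), and after thinning each barcode to 1000 UMIs it was 1.71% and 8.74%.

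Among dividing barcodes of the named classes, T-like ones had 3415 CPM in KO and 3604 CPM in WT, a ratio of 0.947 (0.911 to 0.985). The direction of this small difference depended on the scaling, since the log2 difference was -0.08 by total UMIs and 0.06 with DESeq2 size factors. Neutrophil-like ones had 5475 CPM in KO, from 22 barcodes, and 3439 in WT, from 640. Monocyte-macrophage-like ones had 2924 CPM in KO, from 29 barcodes, and 1388 in WT, from 118. The KO level was thus close to WT in T-like barcodes and 1.59 (1.48 to 1.71) times WT in neutrophil-like ones. Scrublet marked 31.8% of the dividing neutrophil-like barcodes of KO and 27.5% of those of WT as doublets. The monocyte-macrophage-like ratio of 2.11 (1.88 to 2.36) rested on 1 KO barcode that held 252 of the 413 histone UMIs, and without it the ratio was 0.990 (0.835 to 1.17). Scrublet marked 10.3% of these KO barcodes and 50.8% of these WT barcodes as doublets, and without the marked barcodes the ratio was 3.06 (2.66 to 3.51), or 1.40 (1.15 to 1.68) when that KO barcode was left out too. Dendritic cell-like (DC-like) ones had 2616 CPM in KO, from 70 barcodes, and 2218 in WT, from 144, a ratio of 1.18 (1.11 to 1.25). Natural killer and innate lymphoid-like (NK-ILC1-like) barcodes had 3246 CPM in WT, from 264, and were not compared because KO had 14.

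Outside the dividing set the levels were far lower than in it in T-like, neutrophil-like, monocyte-macrophage-like and DC-like barcodes of both libraries. T-like barcodes had 152 CPM in KO and 170 in WT, a ratio of 0.895 (0.841 to 0.952), and NK-ILC1-like ones had 172 and 203 (0.849, 0.764 to 0.943), an interval that held 1 without doublets. Within T-like clusters the direction differed, with ratios of 1.15 (1.003 to 1.32) in cluster 0, 1.03 (0.700 to 1.46) in cluster 2 and 0.847 (0.729 to 0.987) in cluster 4. Neutrophil-like barcodes had 335 CPM in KO and 247 in WT (1.36, 1.27 to 1.46). That ratio was 1.49 (1.35 to 1.63) in cluster 1, 0.728 (0.556 to 0.936) in cluster 5, 1.07 (0.911 to 1.26) in cluster 14 and 0.999 (0.620 to 1.54) in cluster 21, and the libraries differ in their shares of these clusters. Monocyte-macrophage-like ones had 254 and 213 (1.19, 1.12 to 1.27). B-like barcodes had 237 CPM in KO and 205 in WT (1.16, 1.02 to 1.32). The interval for DC-like barcodes, at 222 CPM in KO and 226 in WT, held 1 (0.882 to 1.09). Plasmacytoid DC-like (pDC-like) barcodes were lower in KO, at 177 against 233 CPM in WT (0.760, 0.642 to 0.900). Erythroid-like barcodes had the lowest level of these classes, at 30.9 CPM in KO and 37.5 in WT.

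**Figure D1:**
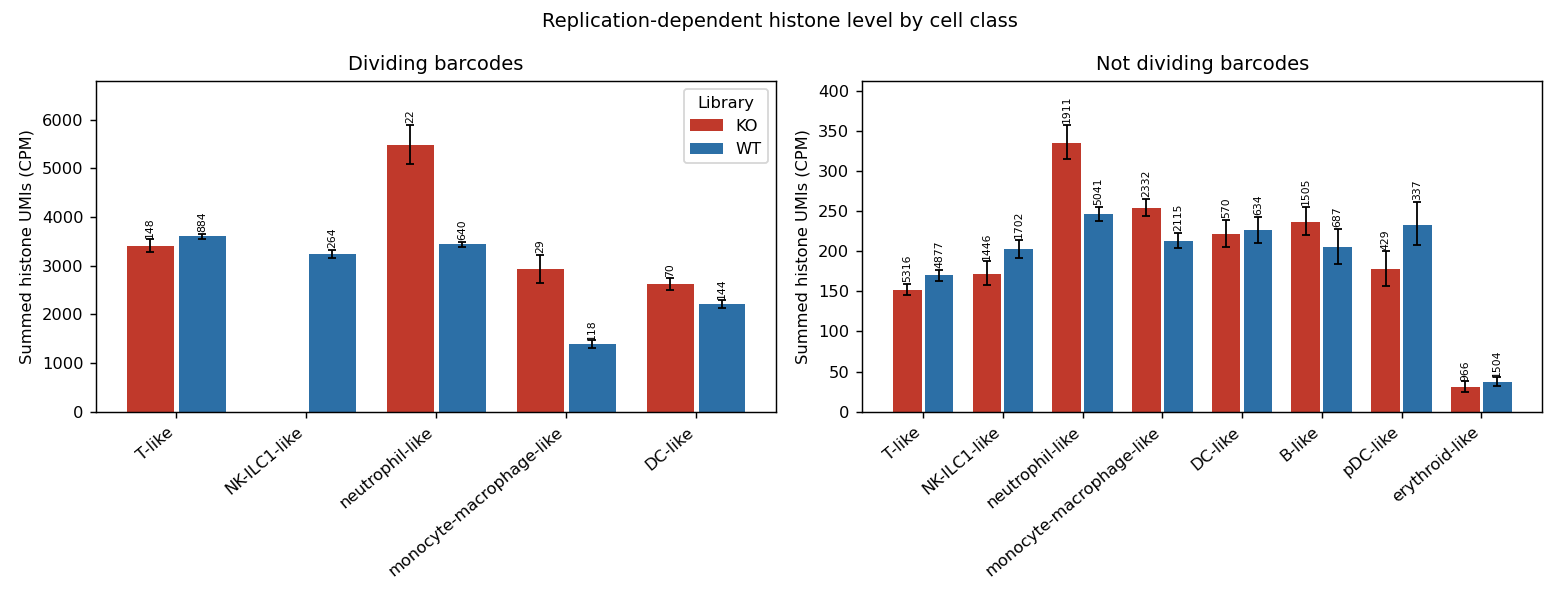
Summed captured level of the 66 members (CPM, vertical axis) by cell class in dividing barcodes (left) and the others (right), KO beside WT, with bars for the sum over barcodes, whiskers for 95% Poisson intervals and the number of barcodes above each bar. Dividing T-like bars stand at 3415 in KO and 3604 in WT, against 152 and 170 outside the dividing set, and the vertical scales of both panels differ.

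Nearly every measured member was higher in dividing T-like barcodes than in the others, in both libraries. The summed level was 22.4 times higher in KO (21.1 to 23.8) and 21.2 times in WT (20.3 to 22.1). Of the members with at least 20 UMIs, 32 of 36 in KO and 51 of 56 in WT were at least 2-fold higher, against 8.62% and 6.32% of all genes, and 25 and 27 were at least 8-fold higher, against 1.94% and 1.41%. A member near the minimum passes it mainly through the barcodes in which it is high. The median log2 difference was 3.66 in KO and 2.97 in WT over members, against -0.12 and -0.09 over all genes.

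The core histone gene H3c3 had the highest ratio among members with UMIs in both sets in KO. H3c3 had 264 CPM in dividing T-like barcodes and 0.348 CPM in the others in KO, from 222 and 4 UMIs, and 231 and 1.62 CPM in WT, from 1398 and 23 UMIs. Its ratios were 758 (292 to 2807) in KO and 143 (94.6 to 226) in WT. The linker histone gene H1f5 had 352 and 1.39 CPM in KO and 607 and 6.56 CPM in WT, ratios of 253 and 92.5. Among H2A genes, H2ac24 had 657 and 3.13 CPM in KO and 489 and 5.99 CPM in WT, and H2ac8 had 308 and 1.83 CPM in KO and 336 and 3.38 in WT. The T-like barcodes outside the dividing set gave 6.11% of H2ac24 and 7.50% of H2ac8 UMIs in KO, and 2.79% and 2.31% in WT. H2ac22, H2ac10, H3c2 and H2bc14 had no UMI outside the dividing T-like set in KO, which with a floor of 3 counts put them at least 296-fold, 150-fold, 105-fold and 95.6-fold higher in the dividing barcodes. Among H4 genes, H4c4 kept 28.9 CPM in KO and 32.8 CPM in WT outside the dividing set, and was 10.8-fold and 11.2-fold higher in it.

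H2ac25, an H2A gene, and H2bc21, an H2B gene, had ratios between dividing and other T-like barcodes whose counting intervals held 1 in both libraries. H2ac25 had 4.75 CPM in dividing and 7.91 CPM in other T-like barcodes in KO, and 3.97 and 4.09 CPM in WT, ratios of 0.600 (0.160 to 1.59) and 0.971 (0.577 to 1.59). The ratio of H4c16, an H4 gene, was 0.788 (0.157 to 2.43) in KO and 2.26 (1.28 to 3.98) in WT, and that of H2bc21 was 1.37 (0.355 to 3.78) and 1.33 (0.688 to 2.49). H2bc27, H2bc4, H1f2 and H2bc6 were between 2.51-fold and 4.17-fold higher in KO and between 2.09-fold and 5.78-fold higher in WT. H4c17, whose annotated transcript ends 3 bases after the stem-loop, also had a low ratio in KO (1.52, 0.171 to 6.34), from 2 UMIs in dividing barcodes, but 13.3 in WT.

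**Figure D2:**
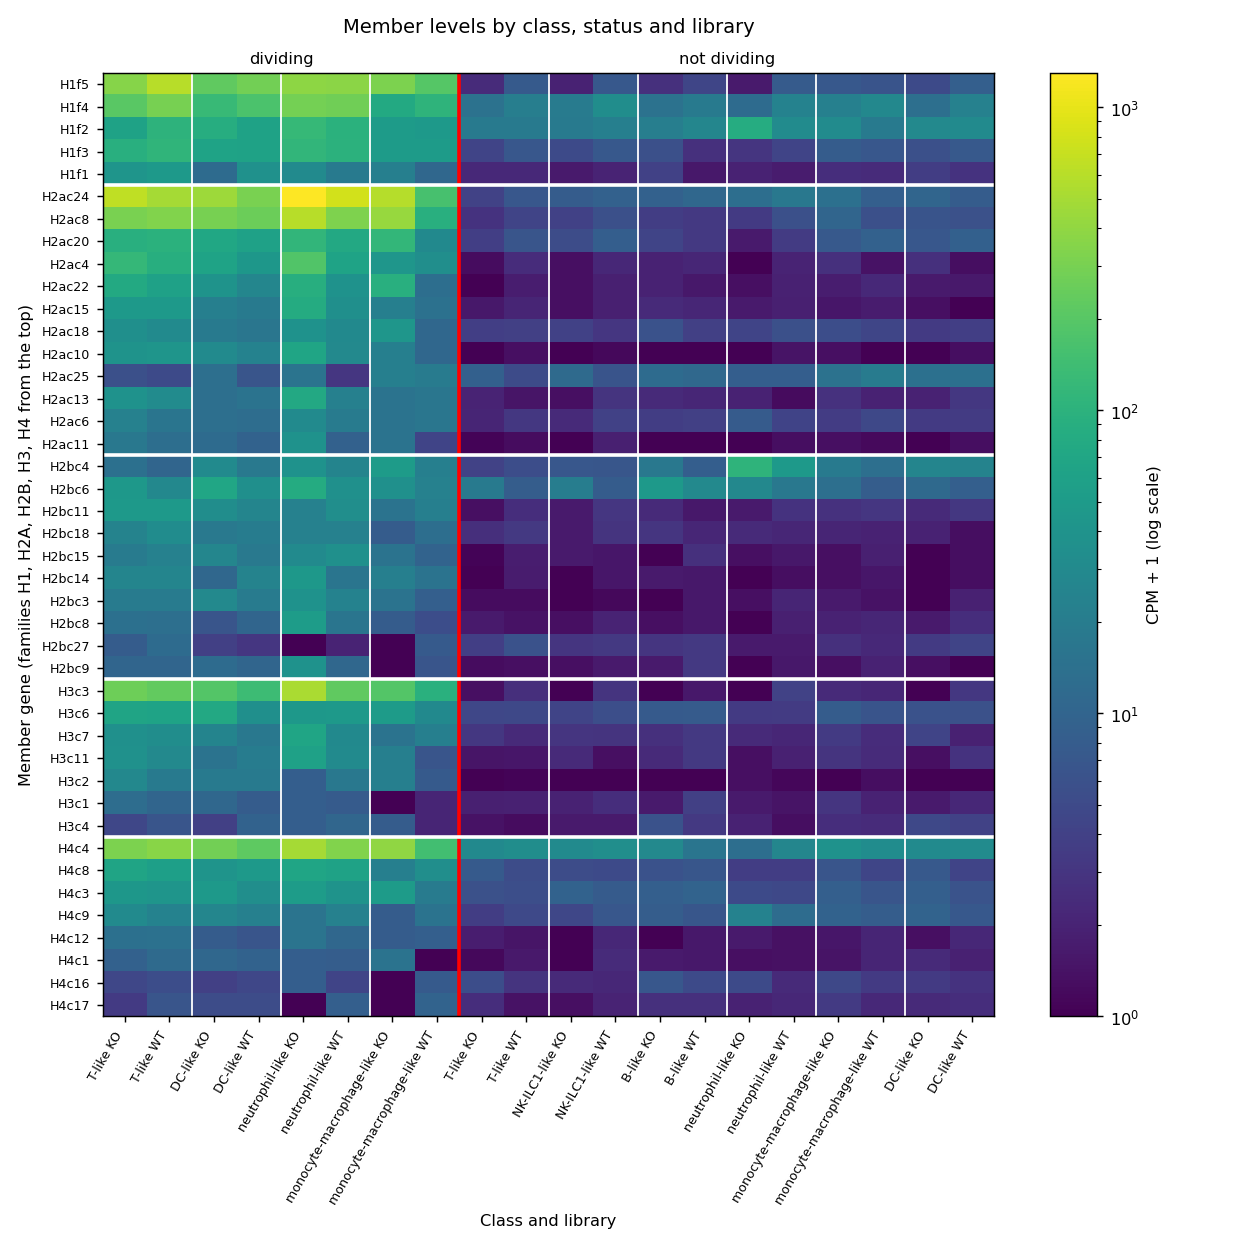
Captured level of single members (colour, CPM + 1 on a log scale) by cell class and library, dividing barcodes left of the red line and the others right of it, KO left of WT in each pair, members grouped by family. H3c3, H2ac24 and H1f5 are bright only left of the line, at 264, 657 and 352 CPM in dividing T-like KO barcodes, whereas H2ac25 is faint on both sides and H4c4 is visible on both.

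The share of a member's UMIs that came from barcodes outside the dividing set went with the annotated transcript. Over members with at least 20 UMIs, the median share was 86.1% in KO and 44.4% in WT for transcripts of at least 1000 bases (17 members in each), against 40.2% (36 members) and 12.1% (44 members) for shorter ones, a length chosen after the values were seen. For members with an AATAAA near the end the median was 88.5% in KO and 45.9% in WT, and for those without 46.7% and 13.6%. Not all members with this signal had high shares, since H2ac8, which has it, had 17.6% in KO and 3.87% in WT. Spearman's rho between length and share was 0.553 over 53 members in KO and 0.516 over 61 in WT, given as a description, since the members share libraries and, in part, reads. Length also depends on how far a transcript was annotated. H2bc13, H2ac13 and H3c10, for instance, are annotated at 381, 393 and 411 bases, without a stem-loop. Most members with over 50% of their words shared are under 1000 bases. The part of annotation and of shared reads in this relation was not tested. H2ac25 had 95.3% of its UMIs outside the dividing set in KO and 81.9% in WT, and H2bc6 had 86.1% and 48.8%. H3c3 had 4.04% and 2.97%. H1f3, with the longest transcript at 7425 bases, had 50.6% and 14.2%, and H2bc9, of 1679 bases, had 28.9% and 15.7%, so that length does not order all members. The smaller dividing set of KO moves with the higher shares of KO.

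**Figure D3:**
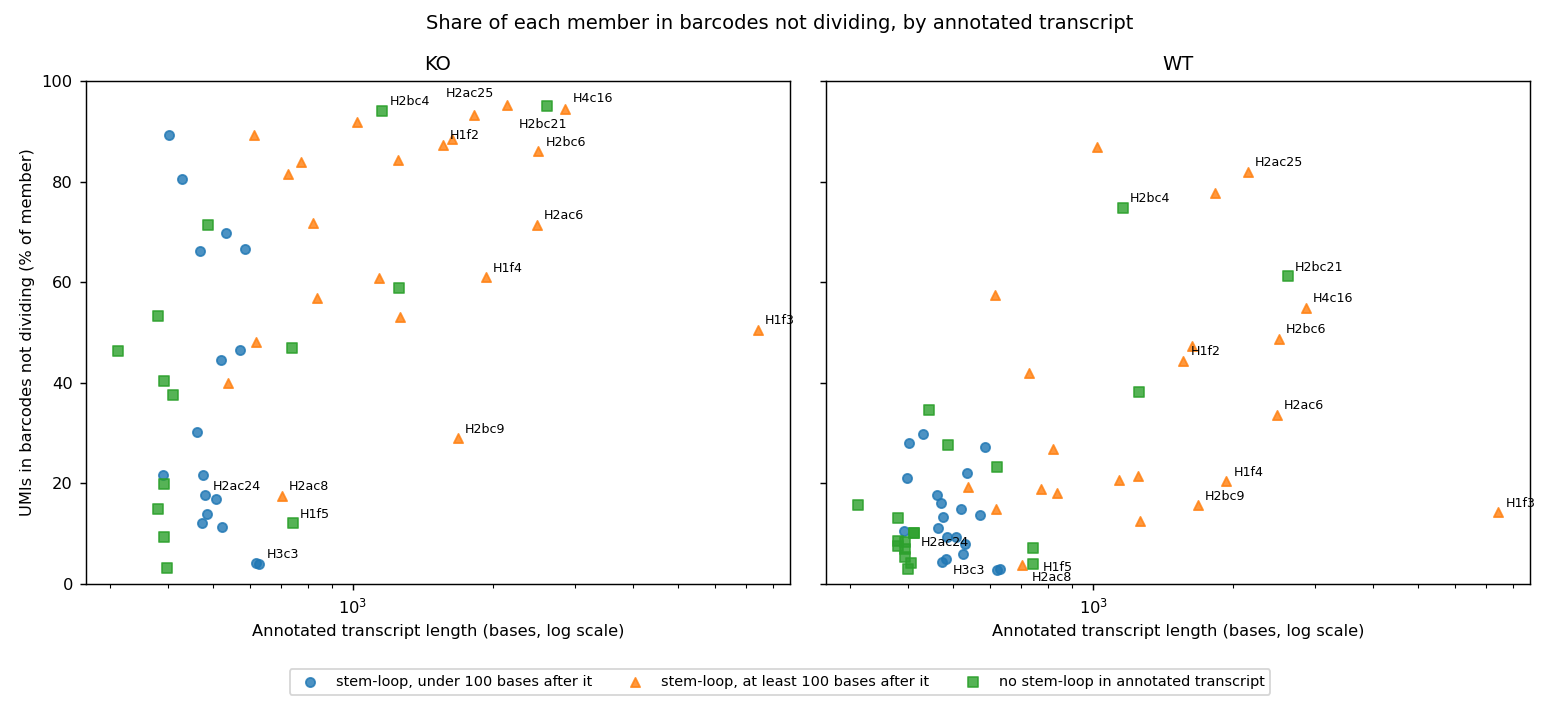
Percent of each member's UMIs in barcodes outside the dividing set (vertical axis) against annotated transcript length (bases, log scale), KO left and WT right, 1 point per member with at least 20 UMIs, with colour and shape for the 3′ end. H2ac25, H4c16 and H2bc6 lie high at right, at 95.3, 94.5 and 86.1% in KO, and H3c3 lies at the bottom left, at 4.04%.

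Between genotypes, 3 of the 5 linker histone genes were below WT in KO beyond counting error within dividing T-like barcodes, as were 17.7% of all genes. Of these 3, H1f5 alone kept its direction in every alternative run. The H1 family summed to 752 CPM in KO and 1163 in WT, the H2A family to 1470 and 1265, H2B to 246 and 234, H3 to 455 and 398 and H4 to 492 and 545. H1f5 had 352 CPM in KO and 607 in WT, a ratio of 0.579 (0.513 to 0.652), H1f2 had 61.8 and 104 CPM (0.596, 0.441 to 0.792), and H1f4 had 207 and 299 CPM (0.690, 0.587 to 0.807). For H1f3, at 90.3 CPM in KO and 108 in WT, and H1f1, at 41.6 and 45.8 CPM, the intervals held 1. H1f2 and H1f4 turned above WT in S-rich barcodes, described below. H2ac24 had 657 CPM in KO and 489 in WT (1.34, 1.22 to 1.47), H2ac4 had 116 and 89.5 CPM (1.30, 1.04 to 1.62), and H2bc6 had 45.1 and 27.8 CPM (1.62, 1.11 to 2.32). H4c4 had 312 CPM in KO and 368 in WT (0.850, 0.745 to 0.966), a direction that turned in S-rich barcodes and without barcodes rich in haemoglobin. Of 54 measured members, 47 had intervals that held 1, 4 lay below it, against 17.7% of all genes, and 3 lay above it, against 7.72%. No member was 2-fold lower or higher, against 8.37% and 3.2% of all genes. These counts lie below the shares of all genes and are not a result about the members. The median log2 difference was 0.01 over members and -0.14 over all genes, and DESeq2 size factors moved that of all genes to -0.01 and the log2 difference of H1f5 to -0.65.

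As a share of the histone UMIs of dividing T-like barcodes, which does not depend on the rest of the transcriptome, H1f5 made up 10.3% in KO (9.21 to 11.5%) and 16.8% in WT (16.3 to 17.3%). H2ac24 made up 19.2% in KO and 13.6% in WT. The H1f5 share was also lower in KO in dividing DC-like barcodes, at 8.69% against 12.8% in WT, and in dividing neutrophil-like ones, at 7.09% against 10.7%, whereas intervals overlapped in monocyte-macrophage-like ones, at 10.7% and 14.2%. A lower share need not be a lower level, since it also falls where other members are higher. In dividing neutrophil-like barcodes the H2A family summed to 2659 CPM in KO and 1454 in WT. H1f5 there had 217 CPM in KO and 398 in WT in S-rich barcodes, described below, and 528 and 360 CPM in the others. Haemoglobin genes held 12.9% of UMIs in dividing T-like barcodes in KO and 2.84% in WT, and the erythroid marker list summed to 130474 and 28629 CPM. The T list summed to 3798 CPM in KO and 5213 in WT there, and the neutrophil list to 373 and 3029 CPM. The part of these markers in the differences was not tested. Without barcodes over 10% haemoglobin, which left 83 in KO and 806 in WT, the log2 difference of H1f5 was -0.67, against -0.78 with them, and that of the summed members turned to 0.23.

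**Figure D4:**
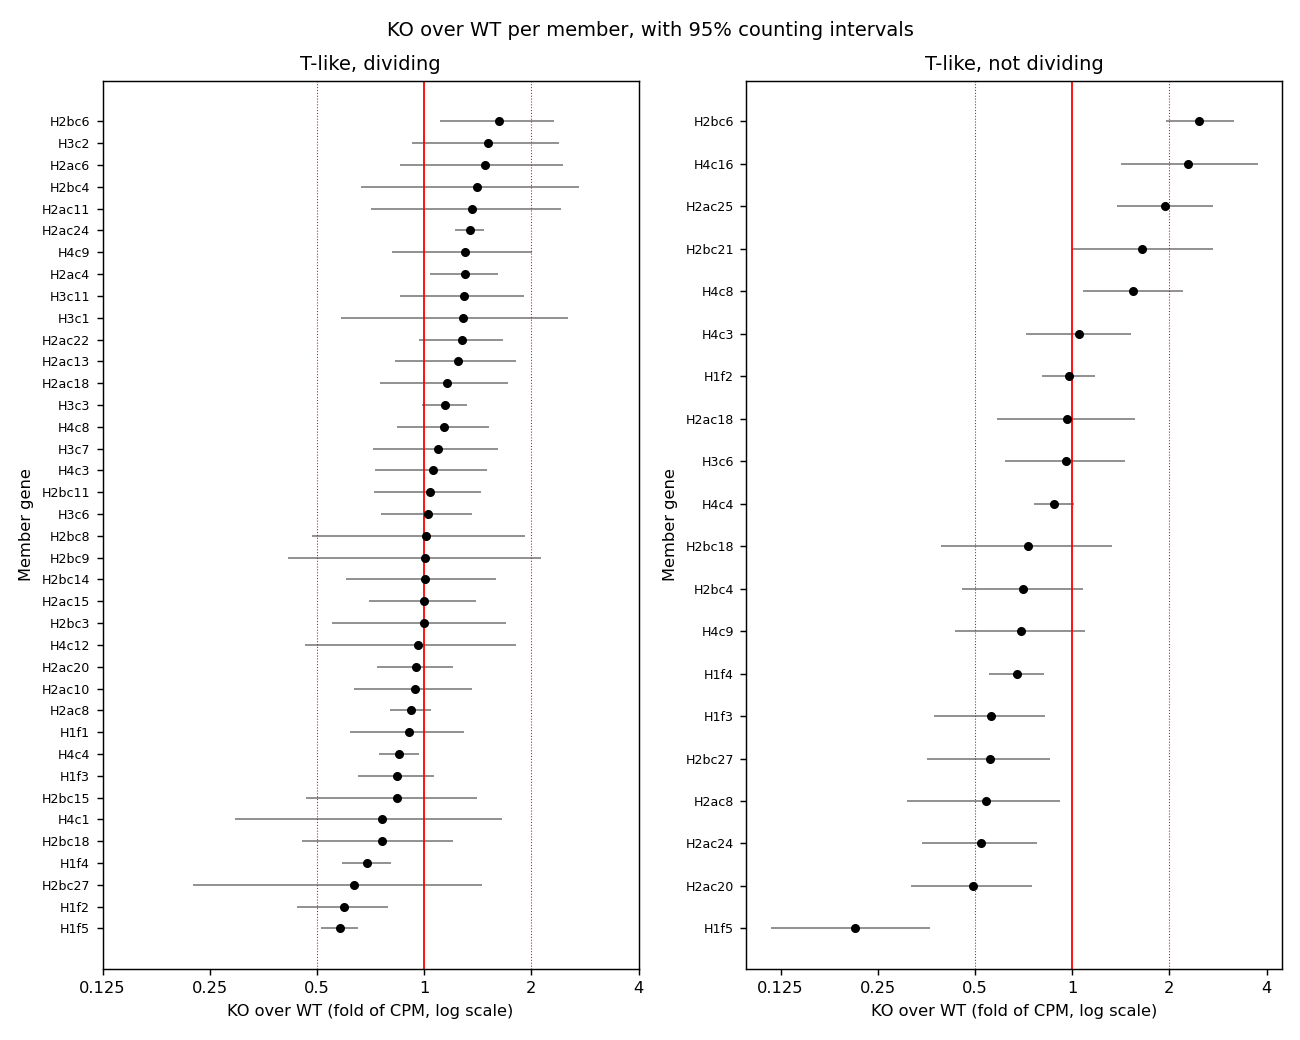
KO over WT ratio of CPM (log scale, horizontal axis) for each member with at least 50 UMIs over both libraries in dividing (left) and other (right) T-like barcodes, with lines for 95% exact intervals of counting error. H1f5, H1f2 and H1f4 lie left of 1 in the left panel, at 0.579, 0.596 and 0.690, and H2bc6 lies highest in both panels, at 1.62 and 2.48.

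Dividing barcodes were ordered by the share of S-list UMIs among UMIs of the S and the G2 and M gene lists, which hold no histone gene. In dividing T-like barcodes of KO the summed member level was 2002, 5386, 5440, 5136 and 673 CPM in bins of 0 to 20, 20 to 40, 40 to 60, 60 to 80 and 80 to 100% S-list UMIs, from 31, 30, 20, 32 and 34 barcodes. In WT it was 3248, 5657, 5319, 3012 and 787 CPM, from 162, 174, 162, 143 and 223 barcodes. The level was thus highest at intermediate shares in both libraries and lowest where S-list UMIs dominated. KO and WT differed most in the bin of 60 to 80%, where KO was higher, and in that of 0 to 20%, where it was lower. H1f5 was lower in KO in each bin, at 167, 581, 564, 572 and 50.6 CPM in KO against 428, 896, 965, 596 and 153 CPM in WT. No interval was taken for H1f5 by bin, and its values lay close together in the bin of 60 to 80%. Barcodes with more S-list than G2 and M list UMIs had 3352 CPM in KO and 2320 in WT, and the others 3480 and 4779. Within the S-rich barcodes alone the ratios of H1f2 and H1f4 turned above 1, whereas H1f5 stayed below it (0.818, 0.689 to 0.965).

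**Figure D5:**
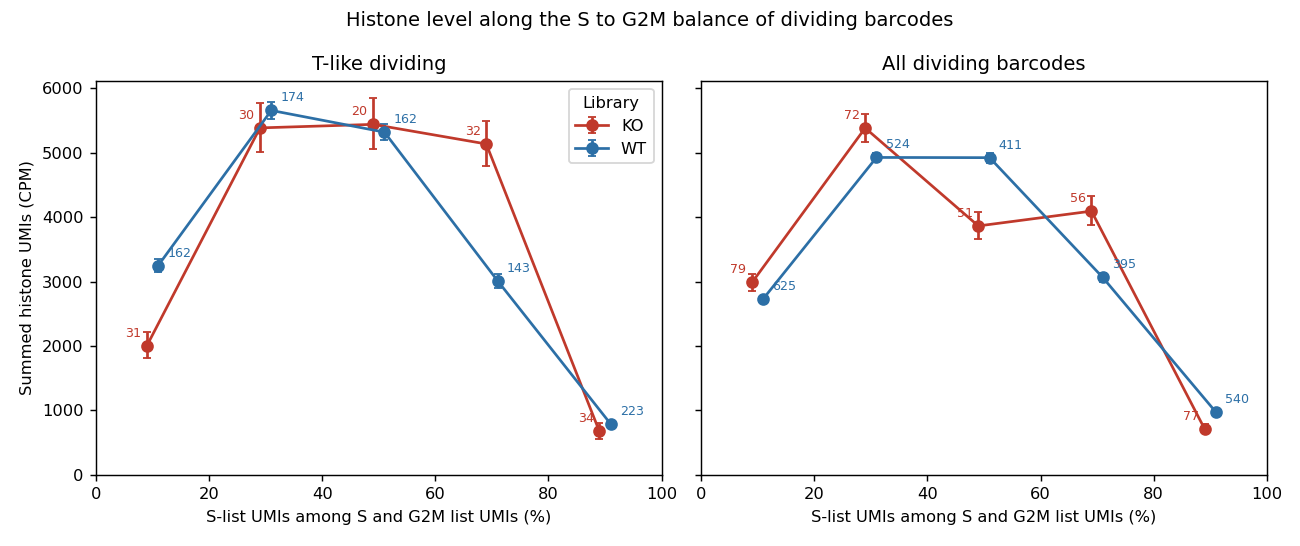
Summed captured level of the members (CPM, vertical axis) in dividing barcodes by the percent of S-list UMIs among S and G2M list UMIs (horizontal axis), T-like left and all classes right, KO and WT as coloured lines with 95% Poisson intervals and the number of barcodes beside each point. T-like values are highest from 20 to 60%, at 5386 and 5440 CPM in KO and 5657 and 5319 in WT, and lowest from 80 to 100%, at 673 and 787.

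Outside the dividing set, T-like barcodes differed between genotypes in opposite directions for different members. H2bc6 had 18.0 CPM in KO and 7.26 in WT, a ratio of 2.48 (1.95 to 3.17), H4c16 had 4.52 and 1.97 CPM (2.29, 1.42 to 3.77), and H2ac25 had 7.91 and 4.09 CPM (1.94, 1.38 to 2.74). H4c8 was also higher, at 6.52 CPM in KO and 4.23 in WT (1.54, 1.08 to 2.20), and for H2bc21 the interval just held 1 (1.64, 0.999 to 2.73). Lower were H1f5, with 1.39 CPM in KO and 6.56 in WT (0.212, 0.116 to 0.363), H1f4, with 13.9 and 20.7 CPM (0.673, 0.552 to 0.819), and H1f3, H2ac20, H2ac24, H2ac8 and H2bc27, with ratios from 0.493 to 0.559. Of 30 measured members, intervals lay below 1 for 10, against 34.1% of all genes, above 1 for 5, against 20.7%, and held 1 for 15. These counts are near the shares of all genes and are not a result about the members. On the scale with 1 CPM added, 1 member was 2-fold lower and 1 was 2-fold higher, against 6.72% and 3% of all genes, and the median was -0.35 over members and -0.07 over all genes.

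Since the T-like class is made of different clusters in each library, values of single members were also taken within clusters. H2bc6 was 18.6 CPM in KO and 7.09 in WT in cluster 0 (2.62, 1.48 to 5.06), from 3328 and 632 barcodes, and 17.5 and 8.28 CPM in cluster 4 (2.11, 1.20 to 3.96). In cluster 2, with 99 KO barcodes, 1 KO UMI gave no usable value. H2ac25 was 9.43 CPM in KO and 3.82 in WT in cluster 0, and 6.22 and 6.63 CPM in cluster 4. H1f5 had 6 and 5 UMIs in cluster 0 and 3 and 3 in cluster 4, and its intervals there held 1. Its ratio lay above 1 in cluster 2 (1.91, 0.225 to 7.23), from 2 KO and 53 WT UMIs. The same was so in cluster 22 (2.16, 0.0411 to 26.9), from 1 and 3 UMIs. The ratio of H4c16 was 1.28 (0.521 to 3.79) in cluster 0, and its interval also held 1 in cluster 2, from 2 and 17 UMIs. In cluster 4 the H4c16 ratio of 9.18 (1.48 to 379) rested on 1 WT UMI. H1f4 had ratios of 0.904 (0.599 to 1.40) in cluster 0, 1.72 (0.685 to 3.62) in cluster 2 and 0.730 (0.432 to 1.26) in cluster 4, so that its call over the class was lost in each.

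H2bc6 was also higher in KO in other classes outside the dividing set. It had 19.9 CPM in KO and 7.17 in WT in NK-ILC1-like barcodes (2.77, 1.83 to 4.23), 45.9 and 28.4 CPM in B-like ones (1.62, 1.16 to 2.29), and 27.3 and 16.7 CPM in neutrophil-like ones (1.63, 1.25 to 2.11). In monocyte-macrophage-like barcodes it had 12.6 CPM in KO and 7.18 in WT (1.76, 1.29 to 2.42). H2bc6 was thus above WT beyond counting error over these 5 classes, T-like included. Its interval held 1 in pDC-like barcodes (0.870, 0.470 to 1.61) and in DC-like clusters 16 (1.94, 0.959 to 4.10) and 20 (0.431, 0.0987 to 1.49). Within clusters H2bc6 was above WT beyond counting error in T-like clusters 0 and 4, NK-ILC1-like clusters 7 and 11, the B-like cluster 6 and monocyte-macrophage-like cluster 9. It was so in no neutrophil-like cluster, with 1.36 (0.988 to 1.85) in cluster 1 and 1.38 (0.708 to 2.68) in cluster 14, nor in monocyte-macrophage-like clusters 8 and 12. Neutrophil-like cluster 5 had 1 UMI of H2bc6 in KO and 55 in WT (0.318, 0.00790 to 1.84), and cluster 21 had 0 and 17. H1f4 was lower in KO in T-like, NK-ILC1-like (18.6 and 32.4 CPM), neutrophil-like (11.1 and 22.9 CPM), monocyte-macrophage-like (21.8 and 27.1 CPM), DC-like (12.8 and 22.6 CPM) and pDC-like barcodes (8.60 and 19.0 CPM), with each interval below 1 over the class. Within clusters this held in NK-ILC1-like clusters 7 and 11, monocyte-macrophage-like cluster 8, neutrophil-like cluster 5, DC-like cluster 16 and the pDC-like cluster 15. The direction turned in neutrophil-like cluster 1 (1.17, from 20 and 51 UMIs) and monocyte-macrophage-like cluster 9 (1.14, 0.825 to 1.57), and the interval held 1 in the T-like clusters above, in monocyte-macrophage-like cluster 12 (0.948, 0.541 to 1.72), in neutrophil-like cluster 14 and in DC-like cluster 20.

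In neutrophil-like barcodes outside the dividing set, an H2B and an H1 gene were higher in KO. H2bc4 had 105 CPM in KO and 47.1 in WT (2.22, 1.94 to 2.55), and H1f2 had 83.2 and 30.6 CPM (2.72, 2.31 to 3.19). H2bc4 was lower in dividing than in other neutrophil-like barcodes, at 37.3 and 105 CPM in KO and 24.1 and 47.1 CPM in WT. These sets differ in their clusters. In cluster 5, 127 of 140 KO and 1632 of 2193 WT barcodes lay outside the dividing set. In cluster 1, 1304 of 1304 and 2294 of 2299 did. Outside the dividing set, cluster 5 had 20.3 CPM of H2bc4 in KO and 15.7 in WT, below the dividing values. Of 27 measured members over the class outside the dividing set, 3 were 2-fold lower and 3 were 2-fold higher in KO, against 5.5% and 5.51% of all genes. The neutrophil-like class was mainly cluster 1 in KO (67.5%) and was split between clusters 1 (40.5%) and 5 (38.6%) in WT. Within cluster 1, H1f2 had 130 CPM in KO and 51.6 in WT (2.51, 2.05 to 3.07) and H2bc4 had 171 and 105 CPM (1.63, 1.39 to 1.91), and in cluster 14 H1f2 had 47.4 and 25.9 CPM (1.83, 1.18 to 2.84). Cluster 14 met 3 neutrophil markers, and Scrublet marked 92.9% of its barcodes as doublets. In cluster 5, H1f2 had 17.8 CPM in KO and 19.8 in WT, from 7 and 136 UMIs. Other markers moved with these values: over the class the neutrophil list summed to 117413 CPM in KO and 244273 in WT, the erythroid list to 121686 and 42824 CPM and the myeloid progenitor list to 10.1 and 93.3 CPM. Their part in the differences was not tested. H4c4 was lower in KO over this class, at 12.5 CPM against 25.5 in WT (0.488, 0.338 to 0.686). Within each cluster its interval held 1. The ratios were 0.560 (0.192 to 1.36) in cluster 1, 0.672 (0.318 to 1.26) in cluster 5 and 0.672 (0.384 to 1.14) in cluster 14. Cluster 21 had 0 UMIs of H4c4 in KO and 6 in WT. Over the class, H3c3 had 0 UMIs in KO and 42 in WT.

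In dividing neutrophil-like barcodes, H2ac24 had 1300 CPM in KO and 796 in WT (1.63, 1.39 to 1.90) and H3c3 had 523 and 223 CPM (2.34, 1.81 to 2.99). Of 44 measured members, 14 were 2-fold higher in KO and 3 were 2-fold lower, against 10.5% and 17% of all genes, on 22 KO barcodes. In dividing monocyte-macrophage-like barcodes, H2ac24 had 588 CPM in KO and 161 in WT (3.65, 2.75 to 4.81), H2ac8 had 425 and 92.2 CPM and H4c4 had 389 and 149 CPM, and 8 of 19 members were 2-fold higher and 0 were 2-fold lower, against 6.34% and 12.5% of all genes. Without the KO barcode that held 252 of the 413 histone UMIs, H2ac24 was at 1.11 (0.669 to 1.77), H2ac8 at 1.57 (0.875 to 2.67) and H4c4 at 1.32 (0.808 to 2.06), and 2 of 17 members were 2-fold higher and 3 were 2-fold lower. With marked doublets left out as well, 1 of 9 members was 2-fold higher. In dividing DC-like barcodes, H2ac24 had 460 CPM in KO and 304 in WT (1.51, 1.31 to 1.75) and H2bc6 had 68.2 and 35.0 CPM, whereas H1f5 had 227 and 285 CPM (0.797, 0.660 to 0.960), H1f4 had a ratio of 0.738 (0.571 to 0.947) and H1f1 had 11.4 and 37.1 CPM. There 1 of 33 members was 2-fold higher and 2 were 2-fold lower, against 2.53% and 3.54% of all genes.

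Of 18 listed genes that process histone mRNA or sit at histone loci, none was 2-fold apart between genotypes in dividing T-like barcodes. Slbp, the stem-loop binding protein, had 215 CPM in KO and 215 in WT, Npat, an activator of histone genes, had 46.3 and 47.0 CPM, and Casp8ap2, a protein of the histone locus body, had 95.02 and 97.6 CPM. Over the 18 genes of this list the log2 differences ran from -0.95 to 0.32, with a median of -0.04, against -0.14 over all genes. The shares of all genes that were 2-fold lower and higher were 8.37% and 3.2%. Slbp was 3.92-fold higher in dividing than in other T-like barcodes in KO and 3.29-fold in WT, and 3 and 2 of the 18 genes were at least 2-fold higher, against 8.62% and 6.32% of all genes. Outside the dividing set Lsm10, part of the snRNP that cuts histone pre-mRNA, had 5.74 CPM in KO and 12.5 in WT (0.460, 0.341 to 0.613).

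Of 16 histone chaperones and importers, 9 in each library were at least 2-fold higher in dividing T-like barcodes, against 8.62% of all genes in KO and 6.32% in WT. Chaf1a, a subunit of the replication-coupled assembly factor CAF-1, had 58.2 CPM in dividing and 1.48 CPM in other T-like barcodes in KO, and 57.9 and 5.15 CPM in WT. Asf1b, which hands H3 and H4 to assembly factors, had 92.6 and 4.43 CPM in KO and 100.2 and 9.31 CPM in WT. None of the 16 was 2-fold apart between genotypes in dividing T-like barcodes, where the median was -0.17, against -0.14 over all genes.

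The 9 measured histone genes that are expressed outside S phase had log2 differences from -0.96 to 0.34 in dividing T-like barcodes. Their median was -0.40 against -0.14 over all genes, and 0 were 2-fold lower, against 8.37% of all genes. H2az1, an H2A variant, had 723 CPM in KO and 1406 in WT (0.514, 0.473 to 0.558), and H3f3b, which encodes H3.3, had 468 and 870 CPM (0.538, 0.484 to 0.596). Cenpa, the centromeric H3 variant, had 146 and 276 CPM (0.530, 0.437 to 0.636). H2aj was higher, at 200 CPM in KO and 158 in WT (1.26, 1.07 to 1.49). Outside the dividing set the 9 ran from -1.45 to -0.05, with a median of -0.53 against -0.07 over all genes, and 2 were 2-fold lower, against 6.72%. There H2az1 had 95.5 CPM in KO and 262 in WT. The S list and the G2 and M list had medians of 0.04 and -0.07 between genotypes in dividing T-like barcodes, and -0.85 and -1.30 in the others, where 9 of 28 and 18 of 26 genes were 2-fold lower in KO, against 6.72% of all genes. The part of residual cycling barcodes in the values outside the dividing set was not tested.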

How the data were processed

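Droplet single-cell RNA libraries were analysed from 1 KO and 1 WT sample. The deposited matrices hold raw UMI counts per gene and barcode, written by Cell Ranger 8.0.1 per the file headers. The mm39 build, Seurat 4.3.0 and an earlier Cell Ranger, 6.0.1, are given in the submitters' processing notes. How reads matching several histone genes were counted is not given in the sources used here. Barcodes with at least 200 genes and at most 20% mitochondrial UMIs were kept, which left 47857171 UMIs in KO and 76402902 in WT.

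Clusters came from scanpy 1.11.5 (10000 counts per cell, 2000 variable genes without member, cell cycle, haemoglobin and ribosomal genes, 30 components, 15 neighbours, Leiden resolution 1). A cluster was named X-like from at least 3 markers at least 2-fold above the other barcodes. Scrublet marked 14.4% of KO and 14.3% of WT barcodes, which were kept and left out as an alternative. UMIs were summed per library, class and dividing status (at least 2 UMIs of Mki67 and Top2a) and scaled to CPM. Ratios carry exact 95% intervals of counting error, and log2 differences add 1 CPM. With 1 library per genotype there was no test and no p-value. A floor of 3 counts stands for a count of 0. The calculation was tested on simulated data. TMM (edgeR 4.0.16) and DESeq2 1.42.0 served only for alternative scalings.

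Single members were named if among the 4 with most UMIs in their family the 5 highest or lowest between genotypes in a class, with at least 50 UMIs, or the 3 highest or lowest between dividing and other T-like barcodes. Others that the text names were chosen after their values were seen. The members and gene lists were chosen with earlier results of these data known. Sequences came from the GENCODE M21 transcripts and the RefSeq promoter table of GRCm38.p6, and no coordinate of the files was used.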

Additional observations from a re-analysis of the deposited data

Results flagged for a closer look

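Several ratios of KO over WT lay on opposite sides of 1 in 2 cell classes, with intervals of counting error that did not hold 1 in either. In each case the difference between classes was not tested, since each genotype had 1 library.

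In dividing barcodes, the summed members were 0.947 times WT in T-like and 2.11 times in monocyte-macrophage-like barcodes. H1f5, a linker histone gene, was at 0.579 in T-like and 1.58 in monocyte-macrophage-like barcodes. H4c4, an H4 gene, was at 0.850 in T-like and 2.62 in monocyte-macrophage-like barcodes. All 3 monocyte-macrophage-like values rested on 1 of 29 KO barcodes, which held 252 of 413 histone UMIs. Without it they were 0.990 (0.835 to 1.17), 0.695 (0.389 to 1.16) and 1.32 (0.808 to 2.06). Scrublet marked 10.3% of the KO and 50.8% of the WT barcodes of this set, and without the marked barcodes and that KO barcode the values were 1.40, 1.23 and 1.49.

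Outside the dividing set, the summed members were 0.760 times WT in pDC-like and 1.36 times in neutrophil-like barcodes, where cluster 5 alone gave 0.728. Of the H2A genes, H2ac24 was at 0.522 in T-like and 1.69 in monocyte-macrophage-like barcodes, and H2ac8 at 0.540 and 1.95 in these classes. H2ac25, whose annotated transcript runs far past its stem-loop, was at 0.741 in monocyte-macrophage-like and 2.02 in NK-ILC1-like barcodes. Its interval held 1 within monocyte-macrophage-like clusters 8, 9 and 12. It also held 1 in NK-ILC1-like cluster 7 (1.47, 0.751 to 2.89) but lay above 1 in cluster 11 (3.14, 1.29 to 7.65). H4c4 was at 0.488 in neutrophil-like and 1.89 in B-like barcodes, but its interval held 1 within each neutrophil-like cluster.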

How the results depend on the processing

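Of 86 alternative values of the summed results, the median over members and the dividing share, 45 stayed within the interval of the value reported. Another 35 moved outside it and 6 turned in direction, in the results named here, and the cause was not tested. A turn was counted only where the interval left out 0. The median over members was given the interval width of the summed difference, and its 4 negative values count as moved. All values are log2. The deficit of KO over all kept barcodes, -1.53, was -1.50 with TMM factors or 10 CPM added, -1.46 with DESeq2 size factors, -1.32 with haemoglobin genes out of the totals, -1.30 after thinning to 1000 UMIs and -1.25 without barcodes over 10% haemoglobin. In dividing T-like barcodes the summed difference, -0.08, turned to 0.0596 with DESeq2 size factors, 0.0803 with haemoglobin genes out of the totals, 0.0625 with at least 1 UMI of Mki67 and Top2a, 0.23 without barcodes over 10% haemoglobin, 0.13 with the class set per barcode from marker UMIs and 0.53 in S-rich barcodes, and was -0.15 after thinning, -0.18 in cluster 17, -0.32 without cluster 2 and -0.46 in G2M-rich barcodes. In these settings, leaving out that of 1 UMI, the median over members, 0.01, was 0.14, 0.16, 0.27, 0.23, 0.78, -0.31, -0.11, -0.21 and -0.28, and it was 0.16 with 1 UMI. In T-like barcodes outside the dividing set, -0.16 became -0.26 with at least 4 UMIs of Mki67 and Top2a and -0.63 after thinning. In each thinned setting, dividing status was set anew from the thinned counts. Only 53.5% of the dividing T-like barcodes of KO and 51.5% of those of WT still passed, and the rest moved outside the set. With status from full counts, thinned T-like barcodes outside the set held on average 0.164 histone UMIs in KO and 0.177 in WT. The difference between dividing and other T-like barcodes in KO, 4.48, was 4.40 with 10 CPM added, 4.04 with 1 UMI, 4.78 with 4 UMIs, 4.75 without barcodes over 10% haemoglobin and 4.64 with the class from marker UMIs. In WT, 4.40 became 4.47 with TMM, 4.50 with DESeq2, 4.33 with 10 CPM, 3.89 with 1 UMI, 4.59 with 4 UMIs and 4.06 after thinning. The dividing share, -2.50, was -3.04 without barcodes over 10% haemoglobin and -2.84 with the class from marker UMIs.

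Among single members in dividing T-like barcodes, S-rich barcodes turned H1f2 to 0.22, H1f4 to 0.15 and H4c4 to 0.52. H4c4 was also 0.18 without barcodes over 10% haemoglobin and 0.10 with the class from marker UMIs. G2M-rich barcodes turned H2ac24 to -0.0386 and H2ac4 to -0.14, and thinning turned H2ac4 to -0.0476. H1f5 was lower in KO in all 16 alternatives, from -1.16 to -0.29, and H2bc6 higher in all 16, from 0.44 to 1.09. In neutrophil-like barcodes outside the dividing set, H1f2 was -0.15 and H2bc6 -1.35 in cluster 5 alone, and H1f4 was 0.21 in cluster 1 alone. Members at least 2-fold apart in dividing T-like barcodes numbered 0 to 5 lower and 0 to 9 higher, and those at least 2-fold higher in dividing than in other T-like barcodes 12 to 32 in KO and 28 to 54 in WT. In further settings, the summed difference in dividing monocyte-macrophage-like barcodes turned to -0.0148 without the KO barcode with most histone UMIs. In T-like barcodes outside the dividing set the summed difference turned to 0.20 in cluster 0, 0.0390 in cluster 2 and 0.19 in cluster 22, and in neutrophil-like ones to -0.46 in cluster 5 and -0.00154 in cluster 21. The settings by cluster, by single barcodes and by S-rich or G2M-rich barcodes were chosen after seeing the data. No paired analysis was possible because each genotype had 1 library, and for the same reason none could be left out. The 148 dividing T-like barcodes of KO limit what could be detected among members of low level.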

Other observations

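The genes whose level most resembled the summed member level included several with known roles in the cell cycle. Over 27 units, each a class and dividing status in 1 library, Pearson's r on log2 CPM was highest for Efcab11 among 12209 genes, at 0.96, and Ect2, Ccnb2, Aurka, Anln and Brca1 were among the next. Mki67 and Top2a, which defined the dividing set, had 0.905 and 0.918. The units were split by Mki67 and Top2a, so that genes higher in dividing barcodes resemble the members by construction. The units also share libraries, and these values are descriptions.

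Barcodes in clusters without a name had 2615 CPM in KO and 2722 in WT where dividing, and 134 and 154 CPM elsewhere. Myeloid progenitor-like barcodes, an early stage of granulocytes and monocytes, held 13 dividing barcodes in KO and 397 in WT, where the level was 3330 CPM. Barcodes left out for under 200 genes, 9283 in KO and 1919 in WT, had 34.0 and 36.0 CPM, and haemoglobin genes held 86.8% and 89.4% of their UMIs. Barcodes left out for over 20% mitochondrial UMIs had 140 CPM in KO, from 75, and 248 CPM in WT, from 111.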
